A study of Mus musculus with 6 samples.

Results

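The small proline-rich genes encode short proteins that are cross-linked into the cornified envelope of stratified epithelia. The 10 genes described here (Sprr1a, Sprr1b, Sprr2b, Sprr2d, Sprr2e, Sprr2f, Sprr2g, Sprr2h, Sprr2i and Sprr2k) were taken by symbol from the 24422 genes counted in whole mouse kidney, as the family of Sprr2f and Sprr2g. The family was chosen by the measured counts of those 2 genes in this same comparison of groups, so the differences of its members between groups are a description and carry no test. Of the 10, 6 (Sprr1b, Sprr2b, Sprr2e, Sprr2h, Sprr2i and Sprr2k) had 0 counts in all 6 libraries, Sprr2d had 1 count in 1 library, and 3 (Sprr1a, Sprr2f and Sprr2g) had at least 10 counts in some library.

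The kidneys came from C57BL/6 mice at postnatal day 60, all fed a diet with 220 ppm iron. There were 3 libraries of control (wild type) kidney and 3 of TfR1KO;KspCre kidney, in which exons of the transferrin receptor gene Tfrc are flanked by recombination sites and Cre is driven by the promoter of Ksp-cadherin, a cadherin of the distal nephron and collecting duct. The controls were labelled wild type, and the label does not say whether they carried the flanked allele without Cre, so an effect of the Cre, or of the allele if controls lacked it, cannot be told apart from that of the deletion. The comparison asks which transcripts differ at this age when the receptor is deleted in those segments. The 3 libraries of the second group are called TfR1KO;KspCre 1 to 3 after their labels.

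Small proline-rich proteins carry glutamine and lysine residues that transglutaminases join to involucrin, loricrin and other precursors. Their genes lie in the epidermal differentiation complex, and are known to be switched on in epithelia that are not cornified when these are wounded, inflamed or obstructed, with AP-1, Ets, Krüppel-like and octamer-binding factors acting on their promoters. The urothelium, which lines the renal pelvis, is among the epithelia in which members of the family are known. In whole kidney, fewer cells of a type and less RNA per cell cannot be told apart.

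Total counts lay between 11501053, in TfR1KO;KspCre 3, and 21001341. Thus 3 counts were worth 0.143 to 0.261 CPM (counts relative to 1000000 counts of the library). These values are before the scaling between libraries (TMM) used for the levels below. Tfrc itself had 2783, 2856 and 1032 counts in controls 1 to 3 and 4368, 1713 and 530 in TfR1KO;KspCre 1 to 3. Its overlap between the groups gives no check of the labels from the whole transcript, and all directions below follow the labels. The marker lists of the proximal tubule (5 of 5 tested genes lower), injured tubule (5 of 5 higher) and macrophages (3 of 4 higher) differed between the groups. Of 6 principal cell markers and 5 of the thick ascending limb, edgeR, DESeq2 and limma-voom called 0, with 1 and 0 at an unadjusted p under 0.05. The summed thick ascending limb markers were nonetheless 845 and 1161 CPM in TfR1KO;KspCre 2 and 3 and 6144 in 1, against 3835 to 9541 in controls, and of 3 distal convoluted tubule markers 1, Pvalb, was called lower. Across 15171 genes tested with edgeR's quasi-likelihood test, 2612 (17.2%) passed an adjusted p of 0.05, 1604 (10.6%) higher and 1008 (6.64%) lower in TfR1KO;KspCre. In 3614 genes (23.8%) all 3 TfR1KO;KspCre libraries lay above all controls, and in 3368 (22.2%) all lay below. When any 1 control was left out, edgeR called 0 genes, with 4270 to 4823 at an unadjusted p under 0.05. Control 2 stood apart in sex-linked transcripts, with 52 counts of Xist against at least 10458 in the other libraries and 1451 of Ddx3y against at most 4, and sex is not in the labels. Nothing in the labels says whether the libraries of a group came from separate litters or days, so p-values measure the spread between these libraries. The study describes the controls of its sequenced models as wild type littermates, without saying which libraries shared a litter.

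The members lie on chromosome 3 in a stretch of 169 kb, chr3:92120627-92289816 (mm9, GENCODE M1). All 8 Sprr2 members are read from the plus strand, and Sprr1a (chr3:92287877-92289816) and Sprr1b from the minus strand. Sprr2f (chr3:92169109-92170364) and Sprr2g (chr3:92177837-92179151) are neighbours with 7472 bases between them. Of the 10 members, 9 have 2 exons, with transcripts of 609 to 820 bases. The annotated Sprr2g model has 3 exons, of which the last 2 are separated by 1 base, 48 bases after the start codon, and RefSeq on GRCm38.p6 lists Sprr2g as a transcribed pseudogene where GENCODE M1 has it as protein coding. The first 51 coding bases of Sprr2f and Sprr2g, and of Sprr2d, which had almost no reads, show how close the genes are. All 3 stretches lie in exon 2 on the plus strand, at chr3:92169818-92169868, chr3:92178562-92178612 and chr3:92144176-92144226 of mm9, and capitals mark bases that differ from Sprr2f.
Sprr2f: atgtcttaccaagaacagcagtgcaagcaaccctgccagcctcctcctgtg
Sprr2g: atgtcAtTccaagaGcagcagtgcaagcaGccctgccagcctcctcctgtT
Sprr2d: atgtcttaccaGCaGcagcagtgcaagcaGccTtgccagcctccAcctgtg

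Sprr2g differed from Sprr2f at 5 of these 51 bases and Sprr2d at 6. Over the whole aligned coding sequence, Sprr2f and Sprr2g were 88.7% identical, and the 28 pairs of Sprr2 members ranged from 74.9% to 97.0%. Identity this high raises the question of whether reads could be assigned, since only uniquely mapped reads were counted. Every stretch of 100 bases, the read length, in the transcripts of Sprr1a, Sprr2f and Sprr2g was found in no other protein-coding transcript. The same held for 8 of the 10 members, and 98.9% of such stretches of Sprr2e and 98.8% of those of Sprr2i were unique, the rest being shared between those 2 genes. By contrast, the non-member Sprr2a3 had 80.4% unique stretches and its copies Sprr2a1 and Sprr2a2 5.81% each, so the counts of these 3 genes are uncertain.

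Promoter sequence was at hand for 9 members from RefSeq (GRCm38.p6), with 250 bases before and 50 after the start site of each gene; Sprr2g was the member without an entry. The 4 motifs below were searched on both strands and were chosen after some of these sequences had been read. The AP-1 letters TGANTCA occurred in 9 of 9 member promoters, and in 7.81% of all 32851 promoters of this length. The octamer ATTTGCAT occurred in 7 of 7 Sprr2 promoters and in neither Sprr1 promoter, against 1.74% of all promoters. Both motifs stood together in 7 of 9 member promoters and in 0.198% of all. The Sprr2 genes are close in sequence, so their 7 promoters are not 7 independent occurrences, and these shares are a description. The STAT letters TTCNNNGAA occurred in 1 of 9 (8.30% of all), and the cAMP response element TGACGTCA in 0 of 9 (1.79% of all). The 3 promoters below are those of Sprr2f and Sprr1a, which had reads, and of Sprr2d, with 1 read in all, each printed for the 250 bases before the start site, with AP-1 and octamer letters in capitals. They lie at chr3:92364937-92365186 (plus strand), chr3:92485882-92486131 (minus strand) and chr3:92338890-92339139 (plus strand) of GRCm38.p6, in that order.
Sprr2f: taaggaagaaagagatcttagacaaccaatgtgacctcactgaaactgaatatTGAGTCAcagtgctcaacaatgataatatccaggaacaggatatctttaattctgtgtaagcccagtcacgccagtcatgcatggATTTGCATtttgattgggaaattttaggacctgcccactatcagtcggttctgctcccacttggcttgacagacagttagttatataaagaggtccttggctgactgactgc
Sprr1a: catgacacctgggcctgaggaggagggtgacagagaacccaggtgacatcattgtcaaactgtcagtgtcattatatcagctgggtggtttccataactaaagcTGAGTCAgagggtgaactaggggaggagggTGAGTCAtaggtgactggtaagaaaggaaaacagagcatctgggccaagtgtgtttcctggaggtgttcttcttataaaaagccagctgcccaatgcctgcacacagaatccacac
Sprr2d: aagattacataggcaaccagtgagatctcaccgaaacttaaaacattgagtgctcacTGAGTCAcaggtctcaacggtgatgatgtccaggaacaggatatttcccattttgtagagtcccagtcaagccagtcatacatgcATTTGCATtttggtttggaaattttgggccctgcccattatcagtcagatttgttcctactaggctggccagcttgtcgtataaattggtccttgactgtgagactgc

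The AP-1 match of the Sprr2 promoters began 193 to 198 bases before the start site in all 7, with another match 182 bases before it in Sprr2k, and the octamer began 108 to 112 bases before it. Sprr1a held AP-1 letters at 146 and 116 bases before its start and Sprr1b at 111. The AP-1 and octamer matches overlapped in no promoter. The promoter of the non-member Sprr2a3, a gene with up to 394 counts, held neither the AP-1 nor the octamer letters. Sprr2f and the silent or nearly silent Sprr2 members shared both matches at nearly the same distances, and these letters do not separate the members with reads from those without. A match of letters is not a measured binding site.

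**Figure D1:**
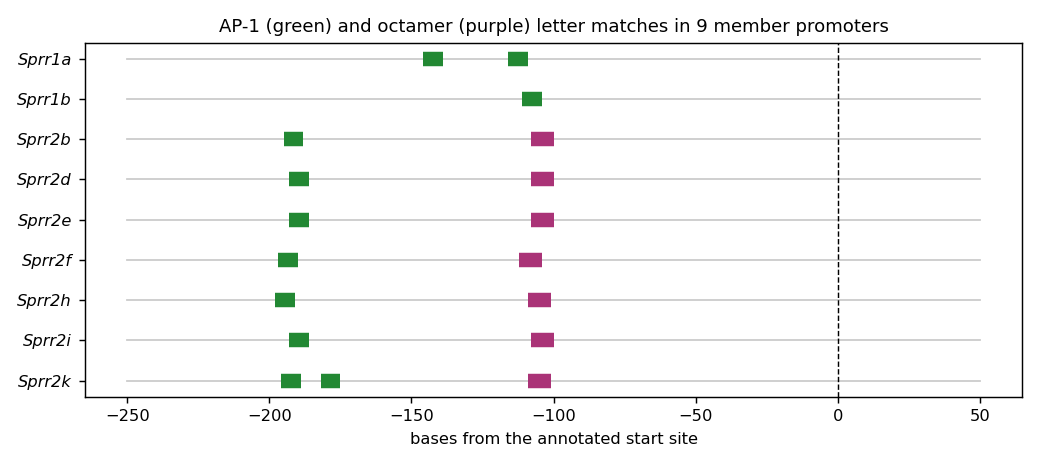
Positions of AP-1 letters (green) and octamer letters (purple) in 9 member promoters, in bases from the annotated start site (dashed line), each grey line spanning 250 bases before to 50 after it. All 7 promoters of Sprr2 members carry both, with AP-1 at 193 to 198 bases and the octamer at 108 to 112 bases before the start, and the 2 Sprr1 promoters carry AP-1 alone.

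Sprr1a was the main small proline-rich transcript of the control kidney. It had 366, 369 and 158 counts in controls 1 to 3, and 900, 4672 and 56 in TfR1KO;KspCre 1 to 3. TfR1KO;KspCre 2 was far above every other library and TfR1KO;KspCre 3 below every control, so the groups overlapped. The mean was 16.4 ± 6.28 CPM in controls and 94.2 ± 122.9 CPM in TfR1KO;KspCre (SD, n = 3 each), and the fitted log2 fold change was 2.52 (SE 1.17). Pooled counts per TMM-scaled total counts were 6.35 times those of controls (exact 95% interval 5.92 to 6.82, counting error only). They were 1.72 times those of controls without TfR1KO;KspCre 2. On the log2 scale the mean difference of 1.19 turned to -0.17 without that library.

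Sprr2f, 1 of the 2 genes that led to the choice of the family, had 1, 7 and 0 counts in controls 1 to 3. It had 62, 1176 and 23 counts in TfR1KO;KspCre 1 to 3. All 3 TfR1KO;KspCre libraries lay above all controls, and most of the counts came from TfR1KO;KspCre 2. In CPM the control mean was 0.154 ± 0.224 and the TfR1KO;KspCre mean 21.3 ± 32.7 (SD, n = 3 each). The fitted log2 fold change was 7.09 (SE 1.84). The pooled ratio was 159 (exact 95% interval 80.4 to 369), resting on 8 control counts. It was 17.1 (8.29 to 40.9) without TfR1KO;KspCre 2 and 869 without control 2, the library apart in sex-linked transcripts, which left 1 control count.

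Sprr2g had 3, 3 and 2 counts in the controls. It had 675, 558 and 54 in TfR1KO;KspCre 1 to 3. The groups did not overlap, and here TfR1KO;KspCre 1, not 2, was the highest library. The mean was 0.148 ± 0.0281 CPM in controls and 21.7 ± 15.5 CPM in TfR1KO;KspCre (SD, n = 3 each), with a fitted log2 fold change of 7.13 (SE 0.95). The pooled ratio was 162 (82.0 to 376), and between 125 and 206 when any 1 library was left out. Of the 3 expressed members, Sprr2g was the gene whose ratio moved least when a library was left out.

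Of the 10 members, 3 passed the filter on low counts and 2 of these, Sprr2f and Sprr2g, were called higher, beside 10.6% of all genes tested. The same contrast chose the family and both passed the filter only through the TfR1KO;KspCre libraries, so nothing is read from that count. With at least 10 counts asked of every library, 1 member was tested and 0 were called. As a description of the fit, both passed the threshold of edgeR under all 3 other scalings, but neither was called without any 1 control or without TfR1KO;KspCre 2, and Sprr2g alone without TfR1KO;KspCre 3. DESeq2's Wald test called Sprr2g and gave no adjusted p for Sprr2f, and limma-voom called Sprr2g alone. Sprr2d had 1 count, in TfR1KO;KspCre 2. For the 6 members at 0, 3 counts over all 6 libraries would be 0.0278 CPM before TMM scaling. That is the limit that these zeros allow for a level shared by all libraries. In a single library 3 counts would be 0.143 to 0.261 CPM on that scale. These members were 6 of the 4664 genes (19.1% of all) that had 0 counts throughout. The non-members Sprr2a1, Sprr2a2, Sprr2j-ps and Sprr3 were also at 0, and Sprr4 had 1 count.

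**Figure D2:**
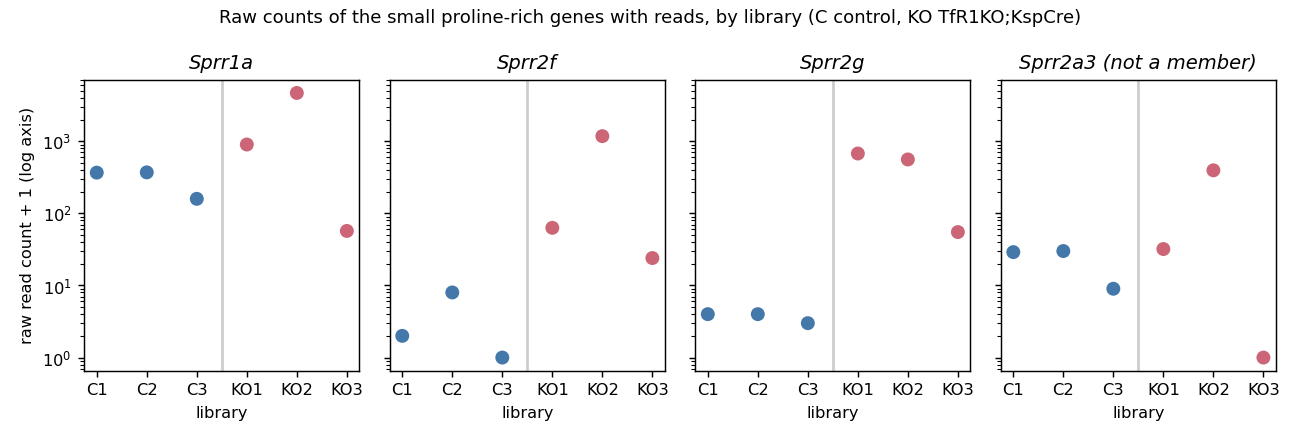
Raw read counts plus 1 on a log axis for Sprr1a, Sprr2f, Sprr2g and the non-member Sprr2a3 in control libraries C1 to C3 (blue) and TfR1KO;KspCre libraries KO1 to KO3 (red), 1 point per library. Sprr2f and Sprr2g have 0 to 7 counts in the controls and 23 to 1176 in the others, while Sprr1a and Sprr2a3 peak in KO2 and have their lowest value in KO3.

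The summed members had 370, 379 and 160 counts in controls and 1637, 6407 and 133 in TfR1KO;KspCre 1 to 3. As CPM these were 18.4, 22.3 and 9.60 against 80.3, 321.3 and 10.2. The groups overlapped, TfR1KO;KspCre 3 lying between control 3 and the other controls. The log2 means differed by 2.02, with a pooled SD of 1.82, and by 0.85 without TfR1KO;KspCre 2.

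The make-up of the family is given here as a description, since Sprr2f and Sprr2g were chosen for being higher in TfR1KO;KspCre and the share of Sprr1a falls as theirs grow. Sprr1a held 92.0%, 90.4% and 94.0% of all small proline-rich counts in controls 1 to 3, and 53.9%, 68.7% and 42.1% in TfR1KO;KspCre 1 to 3. All 3 shares of the second group lay below those of the controls. Sprr2g held 0.754%, 0.735% and 1.19% in controls. It held 40.4% (Wilson 95% interval 38.1% to 42.8%) in TfR1KO;KspCre 1, 8.20% (7.58% to 8.88%) in 2 and 40.6% (32.6% to 49.1%) in 3. Sprr2f held 3.71% (2.91% to 4.73%), 17.3% (16.4% to 18.2%) and 17.3% (11.8% to 24.6%) there, and at most 1.72% in a control. TfR1KO;KspCre 1 was thus rich in Sprr2g and poor in Sprr2f, and TfR1KO;KspCre 2 the reverse, by more than counting error.

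Per kilobase of transcript the order of the genes changed with the library. In controls Sprr1a stood at 11.8 to 27.0 CPM per kilobase and the others below 1. In TfR1KO;KspCre 1 Sprr1a (55.0) and Sprr2g (50.9) were near each other and Sprr2f was at 4.99 CPM per kilobase. In TfR1KO;KspCre 2 the levels were 292 for Sprr1a, 96.8 for Sprr2f and 43.0 for Sprr2g. In TfR1KO;KspCre 3 they were 5.35 for Sprr1a, 6.36 for Sprr2g and 2.89 for Sprr2f, and the 56 counts of Sprr1a and 54 of Sprr2g differ by less than counting error.

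The libraries also differed in urothelial transcripts. The 11 markers of the urothelium (uroplakins, basal keratins, Psca and Trp63) summed to 102, 115 and 57.2 CPM in controls 1 to 3 and to 138, 1422 and 49.7 CPM in TfR1KO;KspCre 1 to 3. Of these, 10 were tested and edgeR and limma-voom called 0, with 2 at an unadjusted p under 0.05, while DESeq2 called 1. The groups overlapped for every one of the 11. Krt13 was at 0 in 5 libraries, and the uroplakins Upk1a, Upk1b, Upk2, Upk3a and Upk3b, genes of the plaque proteins of the urothelial surface, had counts in all 6. The markers did not all fall in TfR1KO;KspCre 3. Upk2 had 1 count and Upk3a 4 there, whereas Upk3b stood at 13.9 CPM, against 12.3 ± 4.69 CPM in controls (SD, n = 3), and Psca at 26.1 CPM, against 26.1 ± 5.07 CPM.

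Sprr1a, like the sum of these markers, was highest in TfR1KO;KspCre 2 and lowest in 3. Relative to the control mean, its CPM was 1.11, 1.32 and 0.576 in controls and 2.68, 14.2 and 0.261 in TfR1KO;KspCre 1 to 3. The 11 markers stood at 1.12, 1.26 and 0.626, and at 1.51, 15.6 and 0.543. Per 1000 counts of the 11 markers, Sprr1a had 178, 189 and 166 counts in controls and 319, 165 and 86.3 in TfR1KO;KspCre 1 to 3, and the groups overlapped. On this scale TfR1KO;KspCre 2 was at the level of the controls, 1 above and 3 below them. The order depended on the markers taken, in sets formed after the values were seen. Per 1000 counts of the 5 uroplakins Sprr1a had 316, 340 and 340 in controls and 722, 467 and 208 in TfR1KO;KspCre 1 to 3, and without Upk3b all 3 TfR1KO;KspCre libraries (875, 502 and 644) were above the controls (417 to 474).

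Sprr2g was ordered otherwise among the 3 TfR1KO;KspCre libraries. Per 1000 counts of the 11 markers it had 1.46, 1.53 and 2.10 counts in controls and 239, 19.7 and 83.2 in TfR1KO;KspCre 1 to 3, and it was lowest of its group in the library with the most urothelial counts. Sprr2f had 0.486, 3.58 and 0 in controls and 22.0, 41.5 and 35.4 in TfR1KO;KspCre 1 to 3 on the same scale, a narrower range within that group. Both genes lay above every control on it, as they did in the raw counts by which the family was chosen, so this separation is a description and no further evidence. In TfR1KO;KspCre 3, where Sprr1a was below every control, Sprr2f had 23 counts and Sprr2g 54. The part of the urothelium in the values of the members was not tested, and these counts do not say which cells carried any of the transcripts.

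**Figure D3:**
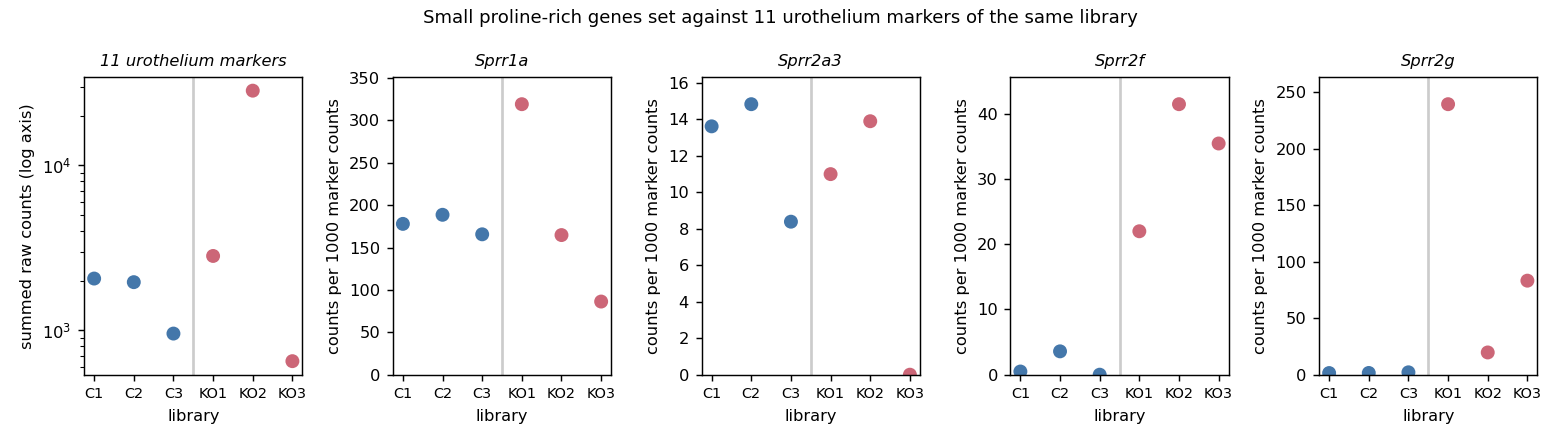
Summed raw counts of the 11 urothelium markers (left, log axis) and counts of Sprr1a, Sprr2a3, Sprr2f and Sprr2g per 1000 of those counts (linear axes from 0), 1 point per library, controls C1 to C3 in blue and TfR1KO;KspCre KO1 to KO3 in red. Marker counts run from 649 to 28361, Sprr1a runs from 86.3 to 319 per 1000 with the groups overlapping, and Sprr2f and Sprr2g, chosen for their difference, lie higher in all 3 red points than in any blue point.

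The neighbouring genes of the epidermal differentiation complex gave 0 calls, where 10.6% of all genes tested were called higher and 6.64% lower. The 6 genes tested are too few to set against those shares. Of 49 names listed, 43 were in the tables, 24 were at 0 in all libraries and 6 were tested, of which 0 had an unadjusted p under 0.05, DESeq2 and limma-voom also calling 0. Their median log2 fold change was 0.18, beside 0.02 over all genes tested. Sprr2a3 had 28, 29 and 8 counts in controls and 31, 394 and 0 in TfR1KO;KspCre 1 to 3, a log2 fold change of 2.57 (SE 1.53, adjusted p = 0.252). Ivl, which encodes the envelope precursor involucrin, had 14, 27 and 7 counts in controls and 36, 354 and 1 in TfR1KO;KspCre 1 to 3, a log2 fold change of 2.86 (SE 1.44, adjusted p = 0.186). Both were thus highest in TfR1KO;KspCre 2 and lowest in 3, as the sum of the 11 urothelium markers was. Per 1000 counts of those markers Sprr2a3 had 8.39 to 14.8 in controls and 0 to 13.9 in TfR1KO;KspCre, with 0 in 3. Repetin (Rptn) reached 23 counts in TfR1KO;KspCre 2, at most 5 elsewhere, and was not tested. The other 4 tested genes had log2 fold changes of 0.13 for loricrin (Lor), -0.54 for trichohyalin (Tchh), 0.24 for Tchhl1 and -2.08 for the sperm protein gene Smcp. Without TfR1KO;KspCre 1, 1 gene of the list was called, lower.

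The enzymes, scaffolds and other precursors of the envelope were split. Of 15 names, 14 were in the tables, 9 were tested, 3 were called higher and 1 lower, where 10.6% of all genes tested were called higher and 6.64% lower. Their median log2 fold change was 0.45, beside 0.02 over all genes. Tgm1, the main transglutaminase of the keratinocyte envelope, fell, with 514, 735 and 421 counts in controls and 340, 188 and 80 in TfR1KO;KspCre 1 to 3, a log2 fold change of -1.54 (SE 0.40, adjusted p = 0.0450). Tgm5, another epidermal transglutaminase, had 4, 0 and 0 counts in controls and 11, 17 and 27 in TfR1KO;KspCre 1 to 3, a log2 fold change of 3.83 (SE 1.05, adjusted p = 0.0493). It passed the filter on low counts only through the TfR1KO;KspCre libraries, and its call was lost with no filter (adjusted p = 0.0560). Anxa1, a calcium-binding membrane protein gene, rose by a log2 fold change of 2.49 (SE 0.42, adjusted p = 0.0282). Cstb, a cysteine protease inhibitor gene, rose by 0.45 (SE 0.12, adjusted p = 0.0457). Its call by edgeR was lost with no filter (adjusted p = 0.0676) and with DESeq2 size factors (adjusted p = 0.0510). Nor did limma-voom call it (adjusted p = 0.0517). The envelope scaffold genes did not pass edgeR's test, envoplakin (Evpl) with -0.35 (SE 0.12, adjusted p = 0.0753) and periplakin (Ppl) with 0.60 (SE 0.30, adjusted p = 0.181) on the log2 scale. Evpl lay below all controls in all 3 TfR1KO;KspCre libraries and was called lower by DESeq2 (adjusted p = 0.0250), and Ppl was called by neither DESeq2 nor limma-voom. Slpi, named after its values were seen, was called higher by DESeq2 (adjusted p = 0.00232) but not by edgeR or limma-voom. Its groups overlapped, with 942 counts in TfR1KO;KspCre 2.

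Of 22 listed transcription factors known to act on promoters of this family or on epithelial barrier genes, 19 were tested, 7 were called higher and 0 lower, where 10.6% of all genes tested were called higher and 6.64% lower. Their median log2 fold change was 1.67, beside 0.02 over all genes. Among AP-1 genes, Fosl2 rose by 1.82 (SE 0.27, adjusted p = 0.0276), Junb by 1.74 (SE 0.36, adjusted p = 0.0325) and Jun by 1.67 (SE 0.36, adjusted p = 0.0326). Jun had 777, 477 and 714 counts in controls and 1634, 1699 and 2389 in TfR1KO;KspCre 1 to 3. Fos, Fosb and Jund, named after their values were seen, had log2 fold changes of 3.31, 2.76 and 0.64. EdgeR called none of them (adjusted p = 0.0509, 0.117 and 0.128), nor did limma-voom. DESeq2 called Fos (adjusted p = 0.000627) and Fosb (adjusted p = 0.0272) higher. The Ets factor gene Elf3 rose by 1.69 (SE 0.35, adjusted p = 0.0323), with 1038, 634 and 654 counts against 2078, 1891 and 2842. The related Ehf was not called, with a log2 fold change of 0.39 (SE 0.25, adjusted p = 0.285). The further Ets gene Elf5, named here after its values were seen, had 360, 230 and 244 counts in controls and 182, 78 and 33 in TfR1KO;KspCre 1 to 3, a log2 fold change of -1.57 (SE 0.46, adjusted p = 0.0561), and was called lower by DESeq2 and limma-voom. The octamer factor gene Pou2f3, named likewise, was not called, with a log2 fold change of -0.75 (SE 0.46, adjusted p = 0.268). Of the Krüppel-like genes, Klf6 rose by 1.78 (SE 0.36, adjusted p = 0.0316), and Klf4 by 2.30 (SE 0.63), its adjusted p of 0.0499789 lying almost at the threshold. Klf4 was not called by limma-voom (adjusted p = 0.107). Of the 7 called genes, Jun, Junb, Elf3, Klf4, Klf6 and Stat3 had their highest CPM in TfR1KO;KspCre 3. In that library all 3 expressed members were lowest of their group. That library was also the smallest and stood apart in the ribosomal RNA gene Rn45s, which took 2.59% of its counts and 0.506% to 0.745% of those of the others, and the part of this in its values was not tested. The AP-1 gene Fosl1 had at most 1 count in any library and was not tested.

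The cytokines of the interleukin-6 family signal through STAT3 in injured epithelia. Of 17 names, 14 were tested, edgeR called 6 higher and 0 lower, beside 10.6% and 6.64% of all genes tested, and DESeq2 called 7 higher and 2 lower. Their median log2 fold change was 1.27, beside 0.02 over all genes. Lif, which encodes leukaemia inhibitory factor, had 9, 5 and 13 counts in controls and 203, 189 and 185 in TfR1KO;KspCre 1 to 3, a log2 fold change of 4.45 (SE 0.42, adjusted p = 0.0271). Lif passed the filter on low counts only through the TfR1KO;KspCre libraries, and edgeR also called it with no filter (adjusted p = 0.0170). The ligand gene Clcf1 rose by 2.28 (SE 0.42, adjusted p = 0.0302), and Osmr, the oncostatin M receptor gene, by 2.12 (SE 0.41, adjusted p = 0.0305). Stat3, which stood in both lists, rose by 1.11 (SE 0.14, adjusted p = 0.0271), with 2018, 1616 and 1379 counts against 3777, 4029 and 2770. Its feedback inhibitor Socs3 rose by 2.87 (SE 0.32, adjusted p = 0.0271), from 75, 35 and 75 counts to 548, 557 and 267. Il6 had 0 counts in all controls and 1, 16 and 14 in TfR1KO;KspCre 1 to 3, and was not tested. The 2 genes that DESeq2 called lower, named for that after their values were seen, were the receptor genes Lifr, with a log2 fold change of -0.46 (SE 0.13, adjusted p = 0.0539 by edgeR and 0.00279 by DESeq2), and Il11ra1, with -0.42 (SE 0.15, adjusted p = 0.0919 and 0.0466). Both lay below all controls in all 3 TfR1KO;KspCre libraries, and edgeR called Lifr lower with DESeq2 size factors and in its newer version.

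In the 4 lists together, 16 of 47 tested genes were called, 15 higher and 1 lower, beside 17.2% of all genes tested (10.6% higher and 6.64% lower), with the same sign for all 16 in every alternative that tested them, and 14 of the 16 called under all 3 other scalings, Cstb and Klf4 being called under 2. With the same test, 0 of the 16 or other listed genes were called without any 1 control or without TfR1KO;KspCre 3 (22 to 27 at an unadjusted p under 0.05), 2 were called without TfR1KO;KspCre 2 and 26 without TfR1KO;KspCre 1.

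**Figure D4:**
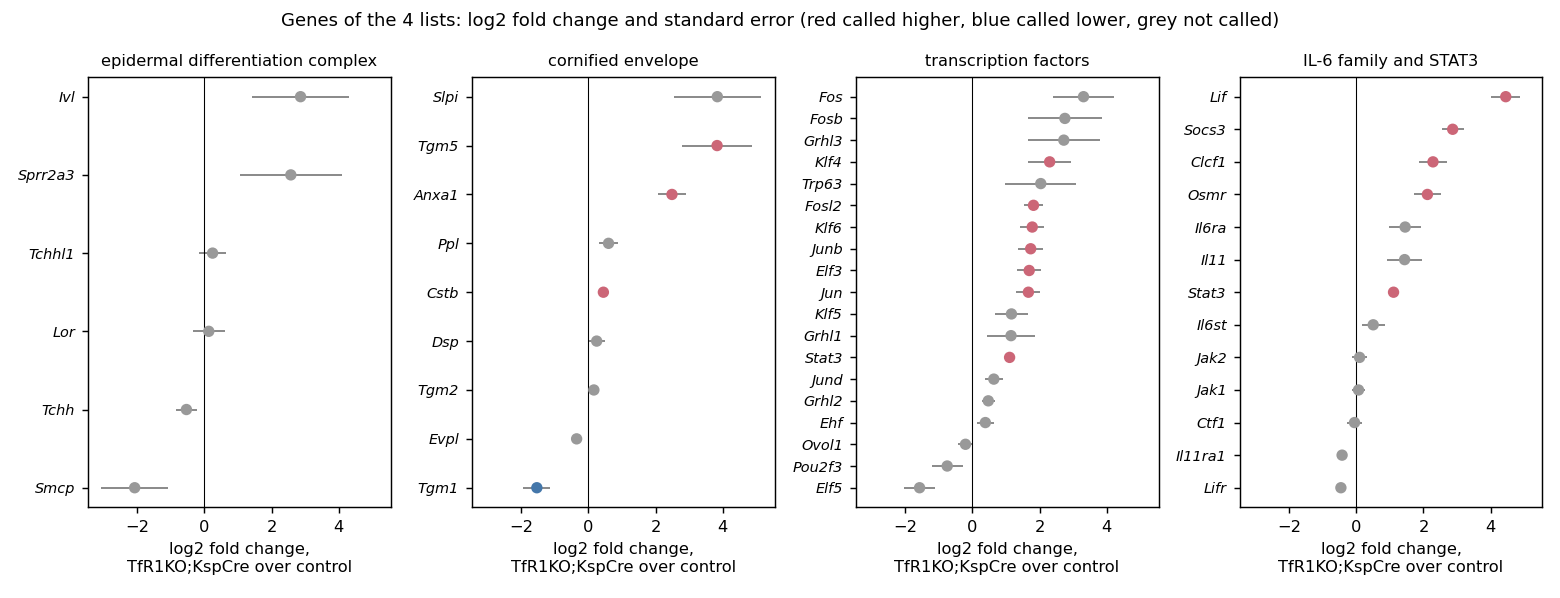
Log2 fold change of TfR1KO;KspCre over control (point) with its standard error (line) for the genes drawn from the 4 lists, red where called higher, blue where called lower and grey where not called by edgeR's quasi-likelihood test at an adjusted p under 0.05. The epidermal differentiation complex list holds no called gene, Tgm1 is the blue point at -1.54, and 7 transcription factors and 5 of the genes drawn from the interleukin-6 list are called higher, Stat3 in both.

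The 5 tested genes outside the family with the profile most like the summed members, by the root mean square difference of centred log2 CPM over the 6 libraries, were Nipal4 (0.550), Kcnd2 (0.562), Sidt1 (0.593), Igsf10 (0.621) and Syt8 (0.634). None of these 5 was called. Nipal4, a gene of a membrane transporter family, had 13, 5 and 4 counts in controls and 21, 159 and 3 in TfR1KO;KspCre 1 to 3. In the same ranking of 15168 genes Ivl stood at 11 and Sprr2a3 at 134, genes looked up after the values had been seen. The 10 tested urothelium markers were spread from 16 for Trp63 to 2383 for Krt14. Between these lay Upk1b at 22, Upk1a at 35, Krt15 at 193, Psca at 455, Upk3a at 636, Upk2 at 723, Upk3b at 730 and Krt5 at 1717.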

How the data were processed

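Poly-A RNA of 6 whole kidneys was sequenced as single-end reads. The authors deposited raw counts, in 1 table of genes for each group. Per the submitters' processing notes and the study's methods, the authors used CASAVA 1.8.2, Trimmomatic, TopHat2 2.0.11 on mm9 and HTSeq, on uniquely mapped reads. The gene annotation and strand setting are not given in the sources used here, so overlapping and antisense genes are uncertain.

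Groups came from the sample titles. Counts were analysed with edgeR 4.0.16 (filterByExpr, TMM, legacy quasi-likelihood test, no covariate) in R 4.3.3, adjusted by Benjamini-Hochberg over 15171 genes and called at 0.05. SE is the size of the log2 fold change over the square root of F. CPM values are TMM-normalised, with a prior count of 2 on the log2 scale. Pooled ratios use total counts scaled by the TMM factors, and shares use family counts. Their exact or Wilson 95% intervals cover counting error only. Alternatives used limma 3.58.1 and DESeq2 1.42.0. The script was tested on simulated data. Coding identity came from global alignment with Biopython 1.88. The members, lists, motifs and scales were chosen with earlier results of these data known. Named genes were all members, complex genes with at least 10 counts in a library, up to 8 called genes per other list, 10 further genes set by name, and the 5 most alike profiles. A gene of the interleukin-6 list is in the counts but not reported here.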

Additional observations from a re-analysis of the deposited data

How the results depend on the processing

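The summed level of the members kept its direction under all 10 alternatives, with log2 differences from 0.85 to 3.34. The difference of Sprr1a, 1.19 on the log2 scale, ranged from -0.17 without TfR1KO;KspCre replicate 2, a reversal, to 2.70 without TfR1KO;KspCre replicate 3. The number of genes called (2612) stayed within 1.5 times under other scalings, filters, the newer quasi-likelihood version and limma-voom, and was 4882 with DESeq2's Wald test. It ranged from 0 to 5332 when any 1 library was left out, and calls among the 47 listed genes (16) from 0 to 26. Library size alone in place of TMM moved the median over all genes from 0.02 to 0.29 on the log2 scale and gave 3640 calls, 2979 higher and 661 lower, against 1604 and 1008.

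With the replicate number as a block, 0 of all genes, 0 listed genes and 0 members were called, with 5432, 25 and 2 at an unadjusted p under 0.05. The labels do not say that the numbers pair the libraries. Deviations of same-numbered libraries correlated at -0.13, 0.01 and 0.21, which cannot exclude a pairing. Not every library correlated best with its own number. The cause of the lost calls, with the block or without a control, was not tested. A left-out library leaves groups of 3 and 2. Sprr2f and Sprr2g rest on 8 control counts each, so their ratios to control have wide intervals.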
